A study of Rattus norvegicus with 16 samples.

Results

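The genes described here are the potassium channel genes of the rat islet: every gene on the array whose annotated symbol starts with Kcn, except Kcnj11. There were 74 such genes among the 14217 genes measured. Where a gene had several probe sets, the one with the highest mean log2 intensity was taken, and 30 of the 74 genes had more than 1. By family the 74 genes comprised 31 voltage-gated pore subunits, 14 inward rectifiers, 11 K2P channels, 5 calcium- or sodium-activated pore subunits and 13 auxiliary subunits. The voltage-gated pore subunits are Kcna, Kcnb, Kcnc, Kcnd, Kcng, Kcnh, Kcnq, Kcns and Kcnv genes; the inward rectifiers are Kcnj genes, the K2P channels Kcnk genes.

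All 16 arrays came from pancreatic islets of male Wistar rats aged 8 weeks, cultured in RPMI medium with 8 mM glucose and 10% serum. The groups were AdNkx6.1 (n = 5 arrays), islets given an adenovirus that carries the transcription factor Nkx6.1; Adβgal (n = 6), islets given an adenovirus that carries β-galactosidase; and untreated islets (n = 5), which received no virus. Virus stayed in the medium for 18 h, and the islets were harvested 48 h after its addition. Each title gives its array as a biological replicate; the labels do not say how many animals each one pooled, nor which islet cells took up virus.

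Potassium channels let potassium leave the cell and so pull the membrane towards rest. In the beta cell, the insulin-producing cell that makes up most of a rodent islet, ATP-sensitive channels built from Kcnj11 and the sulfonylurea receptor Abcc8 close when glucose is metabolised, the membrane depolarises and calcium entry drives insulin release. Voltage-gated and calcium-activated channels then end each action potential, K2P channels carry background current, G-protein-gated inward rectifiers respond to transmitters and hormones that restrain secretion, and auxiliary subunits set the gating and surface number of the pores.

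Promoter sequences are shown for the 4 genes that mark the range of what follows: by the probe sets used, Kcnab3 had the highest increase with AdNkx6.1, Kcnj6 the highest among inward rectifiers and Kcnc2 the largest fall against untreated islets, and Kcnk5 was the called gene that held a homeodomain core. Each is the 250 bases before the annotated start in RefSeq, rat build GRCr8, read 5′ to 3′ in the direction of the gene, and comes from the table and not from these arrays. The windows are Kcnab3 at chr10:54546388-54546637 on the + strand, Kcnj6 at chr11:47778349-47778598 on the - strand, Kcnc2 at chr7:49587364-49587613 on the + strand (1 of its 2 annotated windows) and Kcnk5 at chr15:4171375-4171624 on the + strand. Capitals mark TAATTA, the core bound by many homeodomain factors, the class to which Nkx6.1 belongs, and GGGCGG, the GC box.
Kcnab3: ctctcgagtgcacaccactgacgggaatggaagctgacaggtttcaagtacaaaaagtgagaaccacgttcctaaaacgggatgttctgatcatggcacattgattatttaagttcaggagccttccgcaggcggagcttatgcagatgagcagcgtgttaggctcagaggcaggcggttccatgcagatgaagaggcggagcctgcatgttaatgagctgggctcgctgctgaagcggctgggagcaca
Kcnj6: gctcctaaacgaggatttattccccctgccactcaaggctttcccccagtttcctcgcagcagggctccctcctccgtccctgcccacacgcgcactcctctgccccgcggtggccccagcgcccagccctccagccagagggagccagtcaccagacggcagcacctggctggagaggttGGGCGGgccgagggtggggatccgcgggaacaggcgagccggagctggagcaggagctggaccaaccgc
Kcnc2: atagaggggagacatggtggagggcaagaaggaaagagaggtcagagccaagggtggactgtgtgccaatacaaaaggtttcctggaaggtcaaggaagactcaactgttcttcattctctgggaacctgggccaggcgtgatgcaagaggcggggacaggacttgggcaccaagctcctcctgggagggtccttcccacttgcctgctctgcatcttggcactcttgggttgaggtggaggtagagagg
Kcnk5: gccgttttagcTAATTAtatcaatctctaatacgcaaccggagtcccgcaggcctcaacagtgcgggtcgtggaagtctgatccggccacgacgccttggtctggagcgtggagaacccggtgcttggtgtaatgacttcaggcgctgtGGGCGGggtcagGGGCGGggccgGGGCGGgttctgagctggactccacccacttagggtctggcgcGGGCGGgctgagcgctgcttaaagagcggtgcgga

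A window was found for 52 of the 74 genes, and for 27457 genes in the whole table. Motifs were searched on both strands in the letters given. TAATTA stood in the windows of Kcnj1 and Kcnk5 alone among them, 3.85% of the channel genes, against 5.35% of all genes. AAAGGTCA, the element bound by NR4A receptors, was found in Kcnc4 and Kcnh1, likewise 3.85%, against 1.3% of all genes. The cyclic AMP response element TGACGTCA was found in 0 channel genes and in 1.78% of all genes. GGGCGG was found in 30 channel genes (57.7%), against 33.5% of all genes, and TATAAA in 2, Kcnj1 and Kcnj13, against 14.1% of all genes. With the windows of a gene averaged, the median GC content was 64.2% over the channel genes and 52.0% over all genes. All genes here are the 27457 with a window, not the 14217 measured on the arrays. A match describes letters in a window and is not evidence of binding.

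Across the series, array medians of intensity fell within 264.8 and 296.2. The SD of the difference between a pair of arrays over all genes lay between 0.192 and 0.385 within AdNkx6.1, 0.275 and 0.709 within Adβgal, and 0.217 and 0.267 within untreated. Beta cell markers were high on every array: the mean log2 intensity of 6 measured markers, Ins1, Ins2 and Mafa among them, lay between 13.67 and 13.83 with AdNkx6.1, 13.82 and 13.94 with Adβgal, and 13.94 and 14.1 untreated. The Adβgal arrays numbered 4, 5 and 6 stood apart. Their mean over 10 measured acinar markers was 11.86, 11.3 and 11.37, whereas the other Adβgal arrays read 10.02, 9.0 and 10.5, AdNkx6.1 arrays lay between 8.66 and 10.3, and untreated arrays between 9.44 and 10.34. The summed intensity of those markers lay between 18566 and 43155 with AdNkx6.1, 16624 and 73312 with Adβgal, and 20977 and 33443 untreated. The mean of leukocyte markers (9 measured) was also higher on those arrays, at 7.91, 8.01 and 8.1. It was 7.11, 7.19 and 7.17 on Adβgal arrays 1 to 3, 7.04 to 7.58 with AdNkx6.1 and 7.24 to 7.44 untreated. Ptprc, Adgre1, Csf1r, Cd3e, Cd3d and Tyrobp were higher on each of arrays 4 to 6 than on arrays 1 to 3. Cd68, Itgam and Lck overlapped between these sets of arrays. Stellate and smooth muscle markers (10 measured) averaged 11.35, 11.55 and 11.2 on Adβgal arrays 4 to 6 and 10.49, 10.8 and 10.85 on arrays 1 to 3. They averaged 10.57 to 10.78 with AdNkx6.1 and 10.65 to 10.92 untreated. Among them Actg2, a smooth muscle actin, read 8.35, 9.75 and 7.97 on arrays 4 to 6 and 5.13 to 5.4 on arrays 1 to 3. Acta2, Dcn, Des and Tagln were also higher on each of arrays 4 to 6 than on arrays 1 to 3. Col1a1, Col1a2, Col3a1, Lum and Pdgfrb overlapped between these sets of arrays. Delta cell markers (3 measured) lay between 11.31 and 11.62 with AdNkx6.1, 12.1 and 12.35 with Adβgal, and 12.22 and 12.43 untreated. The gaps differed in size: Sst read 13.9 to 14.01 with AdNkx6.1 and 14.06 to 14.34 untreated. Hhex read 9.6 to 10.11 and 10.7 to 10.92 in these groups, and Rbp4 10.29 to 10.82 and 11.85 to 12.13. Alpha cell markers (3 measured) lay between 10.52 and 10.88 with AdNkx6.1, 10.52 and 11.49 with Adβgal, and 11.13 and 11.34 untreated. They did not move alike. Gcg read 14.43 to 14.75 with AdNkx6.1 and 14.47 to 14.73 untreated. Irx2 read 8.69 to 9.12 and 9.65 to 9.9 in these groups, and Ttr 8.4 to 8.79 and 9.1 to 9.63. Calls in comparisons with Adβgal that were gained or lost without its arrays 4 to 6 are named with the results. In whole islets, fewer cells of a type and less RNA per cell cannot be told apart. The probe set of Nkx6-1 read 11.43 ± 0.17 with AdNkx6.1, 11.9 ± 0.19 with Adβgal and 12.23 ± 0.09 untreated (SD). Whether it lies in the delivered sequence is not given in the sources used here, and its level is therefore no check of the group labels.

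AdNkx6.1 against Adβgal asks what the Nkx6.1 virus changed beyond the control virus. Virus uptake was not compared between the groups, so the delivered factor and the amount of virus cannot be told apart. Of the 74 channel genes, 11 rose and 7 fell at a limma adjusted p under 0.05. Among all 14217 genes 16.6% rose and 8.48% fell, 25.0% in all, so the 24.3% of channel genes called was near the background. Their median log2 change was 0.07, against 0.02 over all genes. A change of at least 1.5-fold was reached by 9 of the genes that rose (12.2% of the 74) and 4 of those that fell (5.41%), against 7.44% and 2.67% of all genes. With quantile normalization applied again, 10 rose and 11 fell (2070 and 1800 over all genes, against 2354 and 1206).

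The families differed in their counts. Of the 11 K2P channels 4 rose and 0 fell, with a median log2 change of 0.39. Of the 5 calcium- or sodium-activated pores 3 rose and 0 fell, with a median of 0.69. Among 31 voltage-gated pores 1 rose and 4 fell (median -0.01), among 14 inward rectifiers 1 rose and 1 fell (median 0.12), and among 13 auxiliary subunits 2 rose and 2 fell (median -0.02). No test of the difference between families was made.

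**Figure D1:**
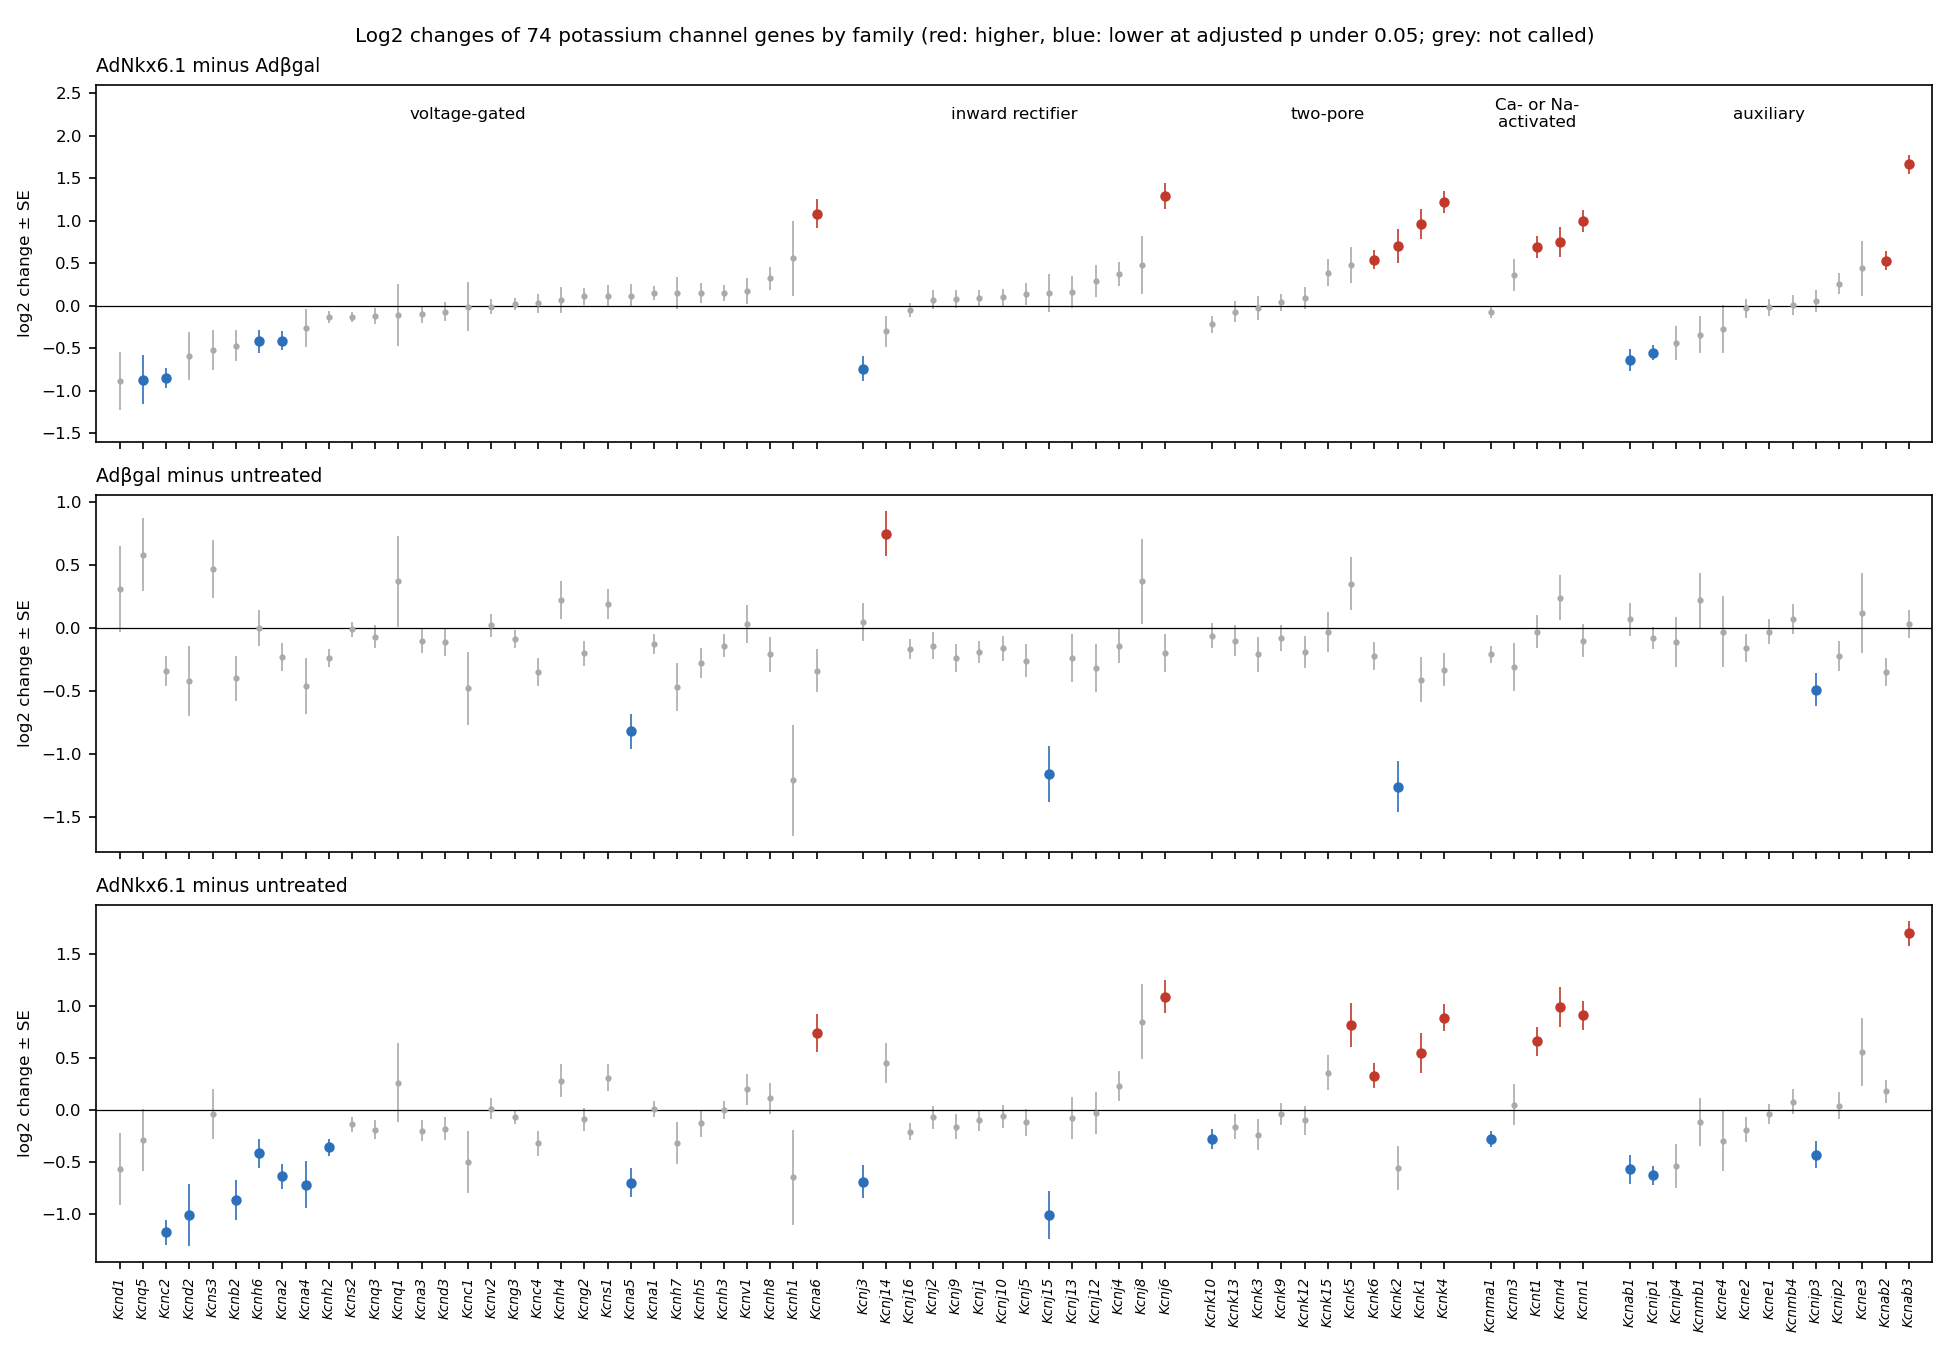
Log2 change ± SE of each of the 74 potassium channel genes (x axis, by family) in AdNkx6.1 minus Adβgal, Adβgal minus untreated and AdNkx6.1 minus untreated (top to bottom); red and blue points passed an adjusted p of 0.05 as higher or lower, grey points did not. In the top panel 11 points are red and 7 blue; in the middle panel 1 is red and 4 are blue; in the lowest 10 are red and 15 blue.

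Among the voltage-gated pores, Kcna6, a Shaker-type delayed rectifier, was the gene that rose. Its log2 intensity was 7.94, 7.95, 8.25, 8.5 and 8.44 on the AdNkx6.1 arrays, 6.65 to 7.44 with a median of 7.3 on the Adβgal arrays, and 7.81, 7.46, 7.17, 7.53 and 7.42 untreated. All AdNkx6.1 arrays lay above all arrays of the other groups. The log2 change was 1.08 ± 0.17 (SE), 2.11-fold, against Adβgal (limma adjusted p = 0.0002) and 0.74 ± 0.18 against untreated (adjusted p = 0.0048). The other 2 probe sets of Kcna6 were dim, at means of 4.402 and 3.54, and changed by -0.165 and -0.154 with neither called. The mean over its probe sets was 0.25 higher than with Adβgal (adjusted p = 0.058) and 0.12 higher than untreated (adjusted p = 0.42).

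Kcnc2, a fast delayed rectifier of the Shaw type, fell. It read 7.52, 7.82, 7.71, 7.37 and 7.64 with AdNkx6.1, 8.27 to 8.86 with a median of 8.41 with Adβgal, and 8.97, 8.77, 8.54, 9.0 and 8.69 untreated. Every AdNkx6.1 array was below every other array, 1.8-fold lower than Adβgal on average (log2 change -0.85 ± 0.12, limma adjusted p = 5.2e-05) and 2.27-fold lower than untreated (-1.18 ± 0.12, adjusted p = 2.5e-06). Its 5 other probe sets were dim, with means between 3.344 and 4.912, and none was called against Adβgal; 1 of them fell by 0.362 against untreated (adjusted p = 0.023). As the mean of its probe sets, Kcnc2 differed from Adβgal by -0.22 (adjusted p = 0.066).

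The other voltage-gated pores that fell were Kcnq5, Kcnh6 and Kcna2. Kcnh6, an ether-à-go-go related channel, read 10.97, 10.92, 10.94, 10.74 and 10.76 with AdNkx6.1, 10.75 to 11.69 with a median of 11.26 with Adβgal, and 11.27, 11.26, 11.24, 11.34 and 11.35 untreated. The AdNkx6.1 arrays lay below all untreated arrays and overlapped the Adβgal arrays. Its log2 change was -0.42 ± 0.14 in each comparison (limma adjusted p = 0.03 against Adβgal and 0.032 against untreated). Leaving out 1 array could end these calls: the call against Adβgal without AdNkx6.1 array 4 or 5 and without Adβgal array 1, 4 or 6 (adjusted p up to 0.075), and that against untreated without AdNkx6.1 array 4 or 5 and without untreated array 1, 2, 4 or 5 (likewise up to 0.075). Both calls held without Adβgal arrays 4 to 6, at -0.46 against Adβgal (limma adjusted p = 0.0081) and -0.42 against untreated (adjusted p = 0.0033).

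Kcna2, a Shaker-type delayed rectifier, read 9.19, 9.03, 8.88, 9.03 and 9.1 with AdNkx6.1, 8.95 to 9.77 with a median of 9.51 with Adβgal, and 9.7, 9.79, 9.66, 9.66 and 9.64 untreated. The log2 change was -0.41 ± 0.11 against Adβgal (limma adjusted p = 0.013), where 1 Adβgal array overlapped, and -0.64 ± 0.12 against untreated (adjusted p = 0.0006), with no overlap. With the mean of its probe sets neither call was made (-0.04, adjusted p = 0.89, and -0.41, adjusted p = 0.057).

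Kcnq5, an M-current channel, read 7.4, 7.26, 6.21, 6.94 and 6.9 with AdNkx6.1, 7.0, 7.03, 7.78, 8.02, 8.46 and 8.6 on Adβgal arrays 1 to 6, and 6.7, 7.42, 7.29, 7.4 and 7.35 untreated. The highest values were those of the Adβgal arrays 4 to 6. The log2 change against Adβgal was -0.87 ± 0.29 (limma adjusted p = 0.038), and -0.33 (adjusted p = 0.39) without those 3 arrays. The call also ended when any 1 of Adβgal replicates 3, 4, 5 and 6 or AdNkx6.1 replicates 3, 4 and 5 was left out (adjusted p between 0.055 and 0.1). Against untreated the change was -0.29 ± 0.3 (adjusted p = 0.52). Its other probe sets, at means of 7.086 and 6.08, changed by -0.041 and -0.154 against Adβgal (limma adjusted p = 0.81 and 0.15). The second of these fell by 0.281 against untreated (adjusted p = 0.011).

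Among inward rectifiers, both genes that moved encode G-protein-gated pores, which assemble with each other, and they moved in opposite directions. Kcnj6 read 7.7, 7.45, 7.77, 7.38 and 7.29 with AdNkx6.1, 5.76 to 6.56 with a median of 6.24 with Adβgal, and 6.36, 6.2, 6.45, 6.25 and 6.91 untreated. Each AdNkx6.1 array exceeded every other array. It rose 2.44-fold against Adβgal (log2 change 1.29 ± 0.15, limma adjusted p = 1.5e-05) and 2.12-fold against untreated (1.09 ± 0.16, adjusted p = 9.2e-05).

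A second probe set of Kcnj6 also rose, by 0.944 against Adβgal (limma adjusted p = 0.00039) and 0.903 against untreated (adjusted p = 0.00069), and the other 2, with means of 4.488 and 3.929, were not called against Adβgal. Kcnj3 read 7.21, 6.75, 6.25, 6.94 and 7.02 with AdNkx6.1, 7.34 to 7.85 with a median of 7.53 with Adβgal, and 7.29, 7.49, 7.83, 7.48 and 7.51 untreated. Here the AdNkx6.1 arrays lay below all others. It fell 1.67-fold against Adβgal (-0.74 ± 0.15, limma adjusted p = 0.0021) and 1.61-fold against untreated (-0.69 ± 0.16, adjusted p = 0.0041). Against Adβgal the call was lost with the mean of its probe sets (-0.24, adjusted p = 0.19). The other genes of this subfamily were not called in any comparison: Kcnj5 changed by 0.14 against Adβgal (95% interval -0.13 to 0.41), and Kcnj9 read between 3.46 and 4.25 on all arrays.

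The K2P genes that rose against Adβgal were Kcnk4, Kcnk1, Kcnk2 and Kcnk6. Kcnk4, a mechanically gated background channel, read 5.52, 5.92, 6.29, 6.32 and 5.86 with AdNkx6.1, 4.58 to 4.95 with a median of 4.72 with Adβgal, and 4.98, 5.21, 5.14, 5.01 and 5.09 untreated. The AdNkx6.1 arrays were above all others. Its log2 change was 1.22 ± 0.13 against Adβgal (2.33-fold, limma adjusted p = 3.1e-06) and 0.89 ± 0.13 against untreated (adjusted p = 9e-05). The gene is dim in the groups without AdNkx6.1, so its fold is not exact.

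Kcnk1, a weakly rectifying background channel, read 7.85, 7.93, 8.07, 8.32 and 8.2 with AdNkx6.1, 6.39 to 7.63 with a median of 7.16 with Adβgal, and 7.68, 7.4, 7.35, 7.49 and 7.72 untreated. Its arrays did not overlap between AdNkx6.1 and either other group. The change against Adβgal was 0.96 ± 0.18 (limma adjusted p = 0.0008), and the smaller one of 0.55 ± 0.19 against untreated (adjusted p = 0.034) was lost without any 1 of AdNkx6.1 replicates 3, 4 and 5 or untreated replicates 2, 3 and 4 (adjusted p 0.057 to 0.089) and after a second quantile normalization (0.37, adjusted p = 0.21). Kcnk6, its close relative, rose by 0.54 ± 0.11 against Adβgal (10.46 ± 0.18 against 9.92 ± 0.23, adjusted p = 0.0017), with no overlap, and by 0.33 ± 0.12 against untreated (10.13 ± 0.11, adjusted p = 0.042); the second call was lost without any 1 of AdNkx6.1 replicates 2, 3, 4 and 5 or untreated replicates 2, 3, 4 and 5, with adjusted p up to 0.11.

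Kcnk2, a mechanically and lipid-gated background channel, followed another pattern. It read 6.95, 6.93, 6.84, 6.99 and 7.22 with AdNkx6.1, 6.67, 6.91, 6.43, 5.36, 6.19 and 6.16 on Adβgal arrays 1 to 6, and 7.71, 7.7, 7.18, 7.51 and 7.62 untreated. Adβgal arrays 4 to 6 were the lowest. It was higher with AdNkx6.1 than with Adβgal by 0.7 ± 0.2 (limma adjusted p = 0.019) and lower with Adβgal than untreated by 1.26 ± 0.2 on the log2 scale. Without Adβgal arrays 4 to 6 the first difference was 0.32 (adjusted p = 0.099), and without AdNkx6.1 replicate 5 it was 0.64 (adjusted p = 0.054). Its second probe set changed by -0.201 and was not called.

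The calcium- or sodium-activated pores that rose were Kcnn1, Kcnn4 and Kcnt1. Kcnn1, a small-conductance calcium-activated channel, read 8.03, 7.48, 7.71, 8.17 and 8.04 with AdNkx6.1, 6.61 to 7.25 with a median of 6.88 with Adβgal, and 6.91, 6.83, 7.22, 6.99 and 6.96 untreated. AdNkx6.1 arrays lay above all others, with a 2.01-fold rise against Adβgal (1.0 ± 0.13, limma adjusted p = 4.2e-05) and a 1.87-fold rise against untreated (0.91 ± 0.14, adjusted p = 0.00013).

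Kcnn4, the intermediate-conductance calcium-activated channel, read 8.02, 7.55, 7.59, 7.9 and 7.72 with AdNkx6.1, 6.57 to 7.68 with a median of 6.88 with Adβgal, and 6.5, 6.75, 6.92, 6.55 and 7.11 untreated. The highest Adβgal array overlapped AdNkx6.1, and no untreated array did. The log2 change was 0.75 ± 0.18 (limma adjusted p = 0.005) against Adβgal and 0.99 ± 0.19 (adjusted p = 0.00076) against untreated. Kcnn3, another small-conductance channel, was not called, at 9.41 ± 0.27 with AdNkx6.1, 9.05 ± 0.48 with Adβgal and 9.36 ± 0.09 untreated.

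Kcnt1, a sodium-activated channel, read 6.15, 5.81, 6.47, 6.32 and 6.61 with AdNkx6.1, 5.33 to 5.82 with a median of 5.54 with Adβgal, and 5.7, 5.64, 5.71, 5.69 and 5.34 untreated. The lowest AdNkx6.1 array lay just under the highest Adβgal array. The change was 0.69 ± 0.13 against Adβgal (limma adjusted p = 0.00097) and 0.66 ± 0.14 against untreated (adjusted p = 0.0016). A second probe set changed far more, by 2.157 against Adβgal (adjusted p = 8.3e-08) and 2.319 against untreated (adjusted p = 5.8e-08), and the third, at a mean of 4.906, changed by -0.07 and was not called. The probe sets of Kcnt1 thus disagree on the size of the rise, and all Adβgal and untreated arrays of the one used were below a log2 of 6, so the fold is not exact.

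**Figure D2:**
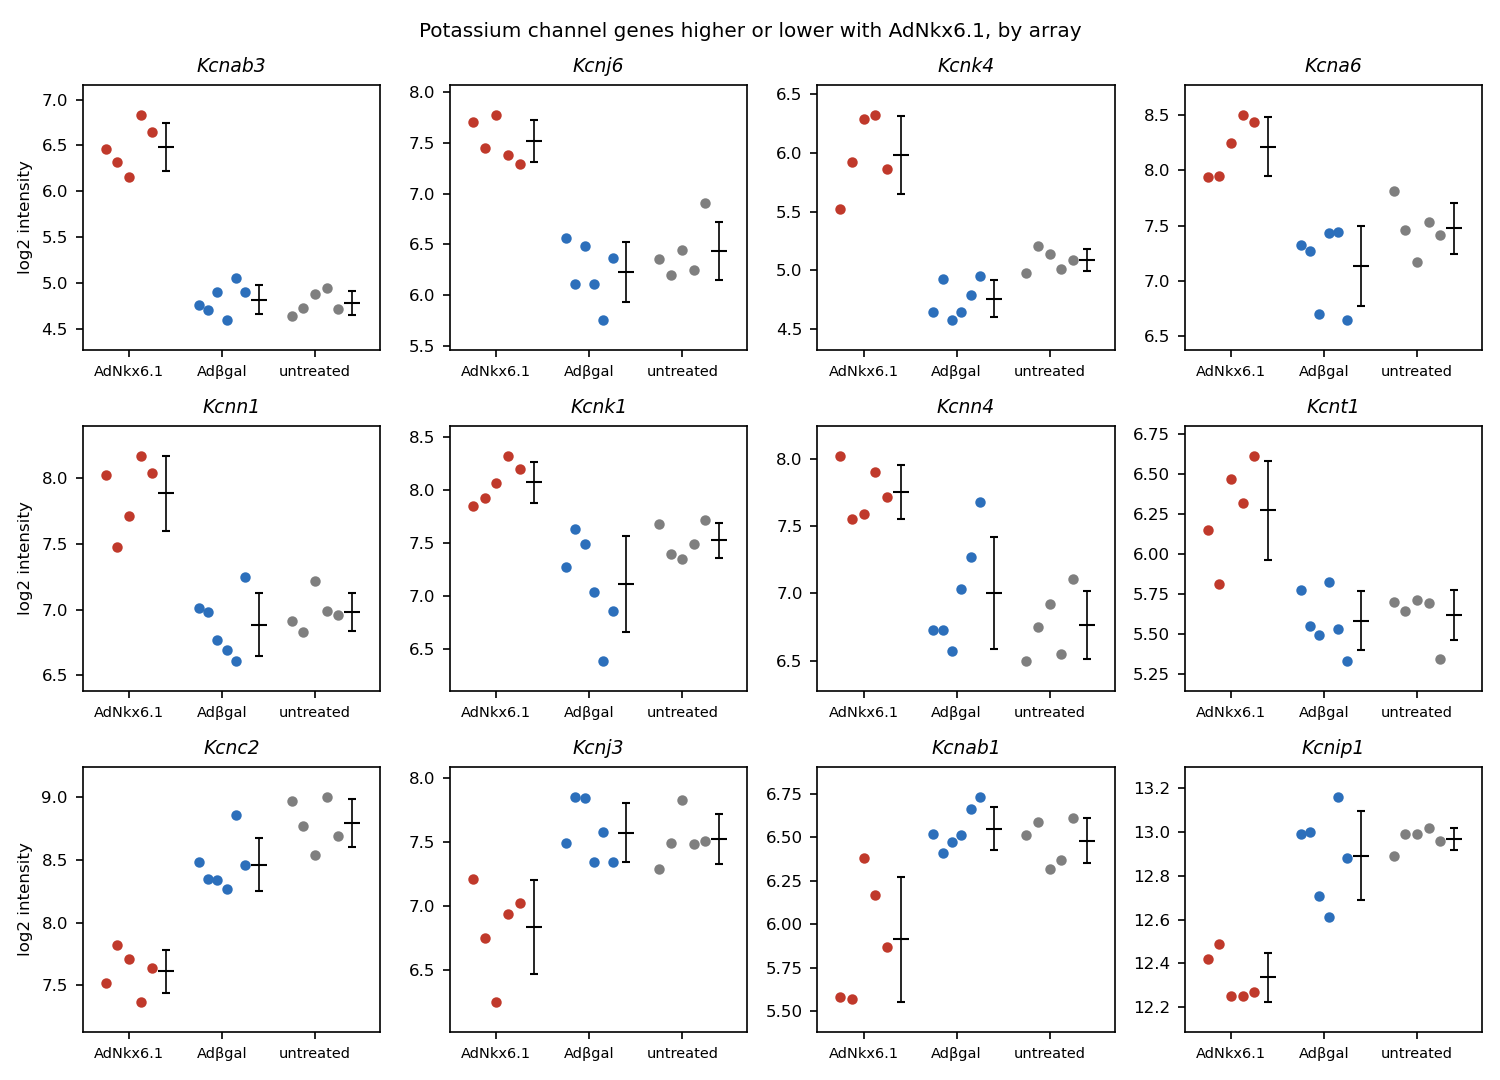
Log2 intensity of 12 potassium channel genes on each array with AdNkx6.1 (red, n = 5), Adβgal (blue, n = 6) and untreated (grey, n = 5); bars give mean ± SD. In Kcnab3, Kcnj6, Kcnk4, Kcna6, Kcnn1 and Kcnk1 every AdNkx6.1 array lies above all others, and in Kcnc2, Kcnj3 and Kcnip1 every one lies below.

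By the probe sets used, an auxiliary subunit had the largest rise of the channel genes; the second probe set of Kcnt1, given above, changed by more. Kcnab3, a cytoplasmic β subunit of Shaker-type channels, read 6.46, 6.32, 6.16, 6.83 and 6.65 with AdNkx6.1, 4.6 to 5.05 with a median of 4.83 with Adβgal, and 4.64, 4.73, 4.88, 4.95 and 4.72 untreated. The AdNkx6.1 arrays lay well clear of the rest. The rise was 3.17-fold against Adβgal (1.66 ± 0.11, limma adjusted p = 3.8e-08) and 3.25-fold against untreated (1.7 ± 0.12, adjusted p = 5e-08). Kcnab3 has 1 probe set on this array, and its level without AdNkx6.1 was dim.

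The paralogs Kcnab1 and Kcnab2 moved differently. Kcnab1 read 5.58, 5.57, 6.38, 6.17 and 5.87 with AdNkx6.1, 6.41 to 6.73 with a median of 6.51 with Adβgal, and 6.51, 6.59, 6.32, 6.37 and 6.61 untreated. It was below all Adβgal arrays and overlapped the untreated ones. It fell by 0.64 ± 0.13 on the log2 scale against Adβgal (limma adjusted p = 0.0018) and by 0.57 ± 0.14 against untreated (adjusted p = 0.0049). Kcnab2 rose by 0.53 ± 0.11 against Adβgal (7.16 ± 0.18 against 6.63 ± 0.19, adjusted p = 0.0015) and was not called against untreated (6.98 ± 0.16, adjusted p = 0.26); of its other probe sets, with means between 4.35 and 4.4, 1 fell by 0.239 (adjusted p = 0.047), and the mean of all its probe sets was 0.08 (adjusted p = 0.5).

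Kcnip1, a calcium-binding partner of Kv4-type pores, fell. It read 12.42, 12.49, 12.25, 12.25 and 12.27 with AdNkx6.1, 12.61 to 13.16 with a median of 12.93 with Adβgal, and 12.89, 12.99, 12.99, 13.02 and 12.96 untreated. There was no overlap between AdNkx6.1 and either group. The log2 change was -0.55 ± 0.09 against Adβgal (limma adjusted p = 0.00026) and -0.63 ± 0.09 against untreated (adjusted p = 9.7e-05). A second probe set, at a mean of 9.538, changed by -0.324 ± 0.371 against Adβgal (adjusted p = 0.57). Against untreated it changed by -0.586 ± 0.388 (adjusted p = 0.28). The third, at a mean of 3.992, was not called either. Kcnip1 is next to Kcnmb1 on chromosome 10, and Kcnmb1, a β subunit of the large-conductance channel, was not called.

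The probe set chosen for a gene mattered. Among 53 tests of other probe sets of called genes, over the comparisons in which the gene was called, 44 were not called, 8 were called in the same direction and 1 in the opposite one, that of Kcnab2. Of the 53, 42 had a mean log2 below 6, as had 36 of the 44. Those not called at a mean of at least 6 were probe sets of Kcnip1, Kcnip3, Kcnk6 and Kcnq5. That of Kcnip3, at a mean of 7.985, changed by -0.09 in Adβgal minus untreated (limma adjusted p = 0.85). In AdNkx6.1 minus untreated it changed by 0.193, opposite in direction to the probe set used (adjusted p = 0.61). Against Adβgal, using the mean of all probe sets gave 9 genes higher and 6 lower. Beside the calls already given, that mean ended those of Kcnk2 against Adβgal (0.25, limma adjusted p = 0.13), Kcnk6 against untreated (0.25, adjusted p = 0.12) and Kcnip3 in AdNkx6.1 minus untreated (-0.12, adjusted p = 0.66) and in Adβgal minus untreated (-0.29, adjusted p = 0.3).

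**Figure D3:**
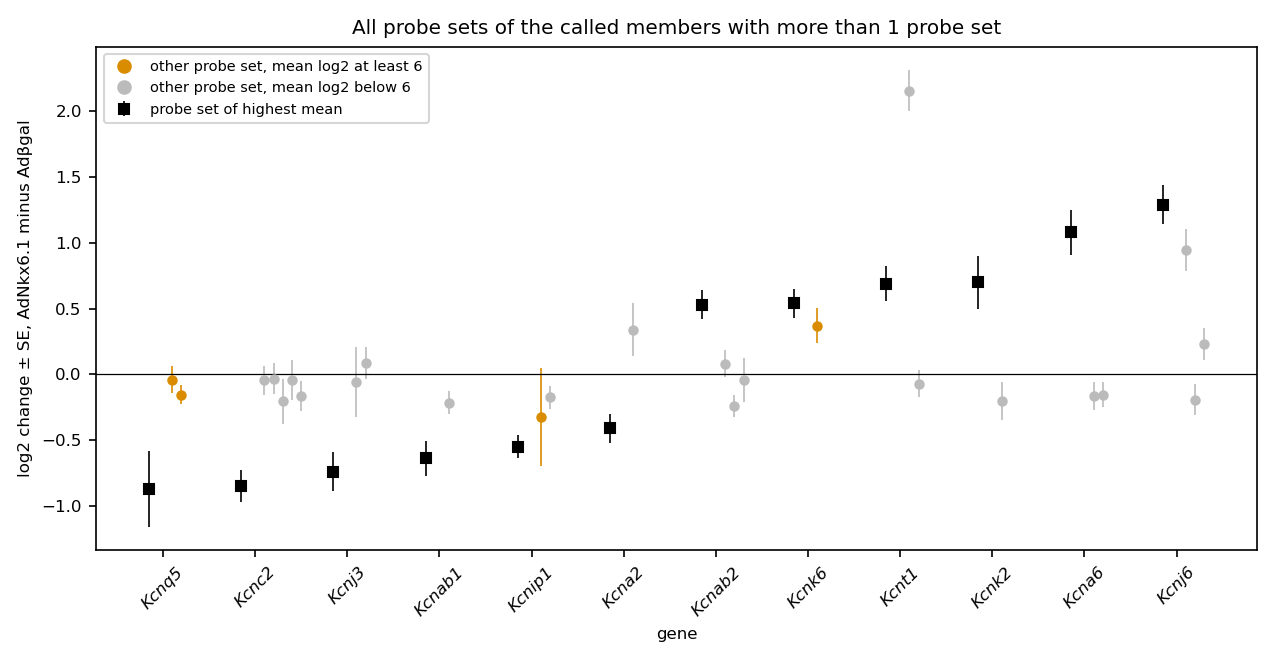
Log2 change ± SE (AdNkx6.1 minus Adβgal, y axis) of every probe set of the called genes that have more than 1 (x axis); black squares are the probe sets used, orange and grey circles the others with a mean log2 of at least 6 and below 6. The second probe sets of Kcnt1 (2.157) and Kcnj6 (0.944) are clearly above 0, and most grey circles lie near 0.

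Groups were fully separated, with no overlap of arrays, for 12 of the 74 genes when AdNkx6.1 was set against Adβgal, 8 higher and 4 lower, against 14.2% of all genes (10.4% higher and 3.78% lower). Between Adβgal and untreated this held for 6 genes, all lower in Adβgal, against 6.88% of all genes (2.05% higher and 4.83% lower). Between AdNkx6.1 and untreated it held for 26 genes (11 higher and 15 lower), against 32.1% of all genes (17.4% higher and 14.7% lower).

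The control virus was set against untreated islets to show what infection with the control virus changed. Of the 74 genes 1 rose and 4 fell at a limma adjusted p under 0.05, against 2.84% and 4.17% of all genes (7.01% in all). The median log2 change was -0.14, against -0.04 over all genes. Among the called genes Kcnj15, an inward rectifier, fell the most after Kcnk2. It read 7.3, 7.39, 7.25, 6.84 and 7.21 with AdNkx6.1, 6.3 to 7.71 with a median of 7.03 with Adβgal, and 7.92, 8.52, 8.19, 8.26 and 8.18 untreated. No array of either virus group reached the untreated ones. The log2 change against untreated was -1.16 ± 0.22 with Adβgal, 2.24-fold lower (limma adjusted p = 0.0057), and -1.01 ± 0.23 with AdNkx6.1 (adjusted p = 0.0029).

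Kcna5, a Shaker-type delayed rectifier, fell with each virus. It read 8.17, 8.39, 8.06, 8.12 and 8.37 with AdNkx6.1, 7.71 to 8.49 with a median of 8.15 with Adβgal, and 9.13, 8.96, 8.72, 8.87 and 8.94 untreated. Neither virus group overlapped the untreated arrays. The change against untreated was -0.82 ± 0.14 with Adβgal (limma adjusted p = 0.003) and -0.7 ± 0.14 with AdNkx6.1 (adjusted p = 0.0015). Both comparisons share the untreated arrays.

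Kcnk2 was lower with Adβgal by 1.26 ± 0.2 (2.39-fold, limma adjusted p = 0.0025), with every Adβgal array below every untreated one. Its second probe set, at a mean of 5.814, changed by 0.022 in this comparison (adjusted p = 0.94). In AdNkx6.1 minus untreated the probe set used for Kcnk2 changed by -0.56 ± 0.21 (adjusted p = 0.058). Kcnip3, a calcium-binding protein of the same family as Kcnip1, read 10.8 ± 0.14 with AdNkx6.1, 10.74 ± 0.29 with Adβgal and 11.23 ± 0.17 untreated (SD). It fell by 0.49 ± 0.13 with Adβgal (limma adjusted p = 0.03), a call lost without Adβgal replicate 6 or any 1 of untreated replicates 1, 2, 4 and 5, and without Adβgal arrays 4 to 6 (-0.33, adjusted p = 0.11). It fell by 0.43 ± 0.13 with AdNkx6.1 (adjusted p = 0.022), a call lost without AdNkx6.1 replicate 2 or 3 or untreated replicate 1 or 4 (adjusted p up to 0.057).

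Kcnj14, an inward rectifier of the Kir2 subfamily, was the 1 gene that rose. It read 10.62, 10.24, 10.41, 11.46, 10.52 and 10.96 on Adβgal arrays 1 to 6, and 9.53, 9.99, 10.25, 10.04 and 9.95 untreated. The lowest Adβgal array lay just under the highest untreated one, and the other Adβgal arrays above all untreated ones. The change was 0.75 ± 0.18 (limma adjusted p = 0.019). It was 0.47 (adjusted p = 0.067) without Adβgal arrays 4 to 6 and 0.65 (adjusted p = 0.056) without untreated replicate 1.

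**Figure D4:**
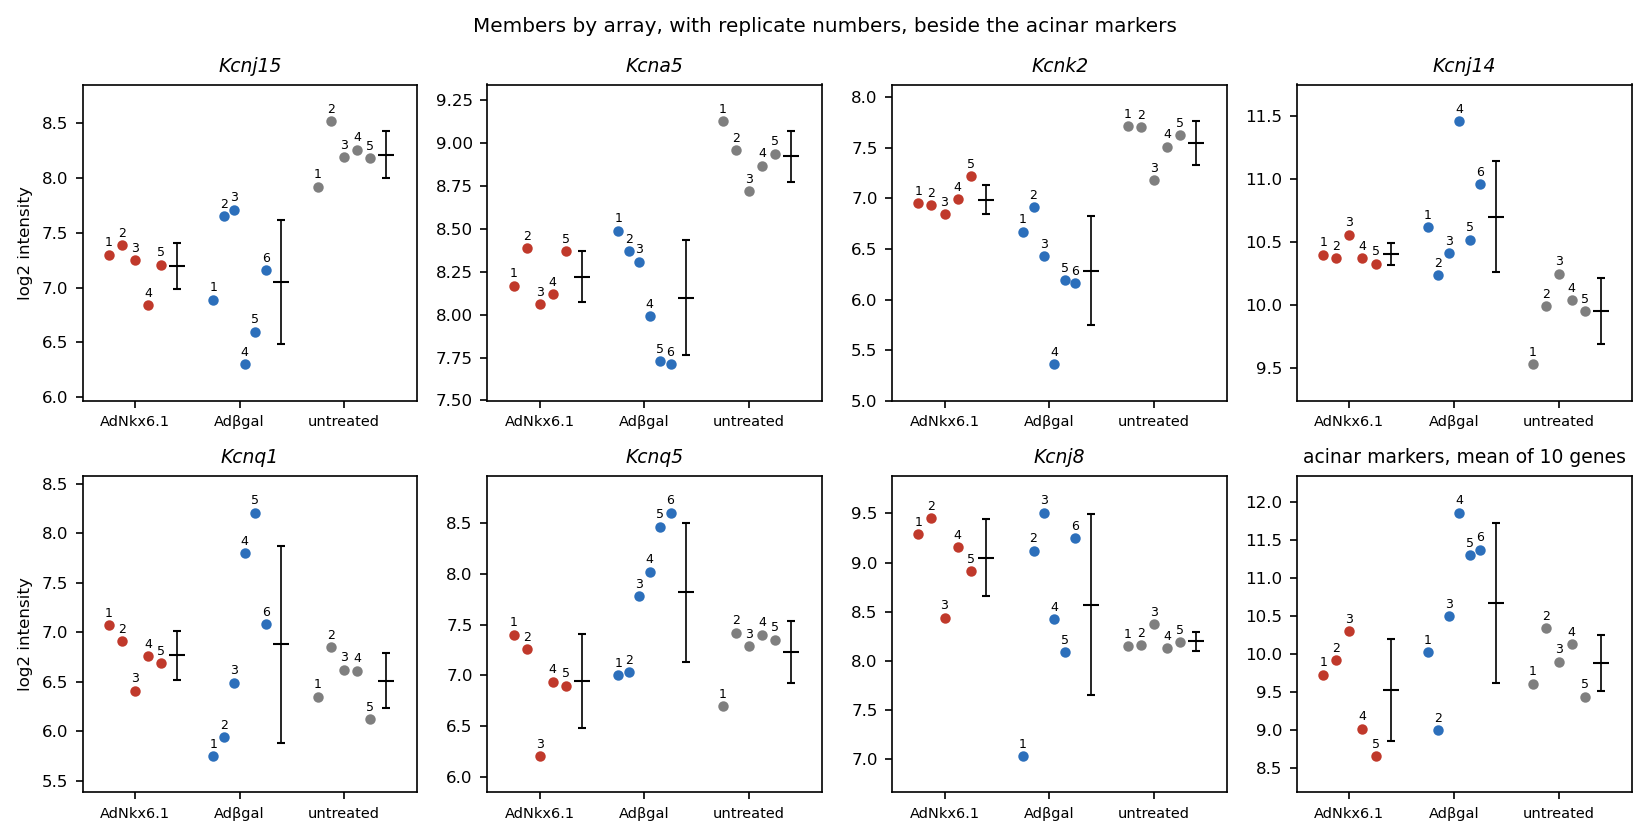
Log2 intensity of 7 potassium channel genes on each array, numbered by replicate, with AdNkx6.1 (red), Adβgal (blue) and untreated (grey); bars give mean ± SD, and the last panel is the mean log2 of 10 acinar marker genes. Adβgal arrays 4, 5 and 6 have the highest acinar values (11.86, 11.3 and 11.37) and the highest Kcnq5 values (8.02, 8.46 and 8.6).

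Some channel genes also read differently on the Adβgal arrays 4 to 6, where acinar markers and some leukocyte and smooth muscle markers were high. Kcnq1, a cardiac and epithelial delayed rectifier, read 5.75, 5.94 and 6.49 on Adβgal arrays 1 to 3 and 7.8, 8.21 and 7.08 on arrays 4 to 6. The SD of the group was 1.0, against 0.25 with AdNkx6.1 and 0.28 untreated. Its difference between AdNkx6.1 and Adβgal was -0.11 ± 0.36 (limma adjusted p = 0.86) and became 0.7 (adjusted p = 0.014) without arrays 4 to 6. Kcnh1, an ether-à-go-go channel, read 7.3, 6.89 and 6.79 on arrays 1 to 3 and 5.69, 4.02 and 6.14 on arrays 4 to 6. Kcnd1, an A-type channel, was high on array 4 alone, at 11.37, and read 8.93 to 9.31 on the other Adβgal arrays, 5 and 6 included.

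Kcnj8, the pore of vascular ATP-sensitive channels, read 7.03, 9.12, 9.51, 8.42, 8.09 and 9.25 on Adβgal arrays 1 to 6, where endothelial markers (6 measured) averaged 9.09, 10.6, 11.06, 10.28, 11.57 and 10.89. Array 1 was lowest in both, but array 5 had the highest endothelial level and the next lowest Kcnj8. The part of these cell markers in the channel values was not tested. Without arrays 4 to 6, 14 channel genes were higher and 9 lower with AdNkx6.1 than with Adβgal (18.9% and 12.2% of the 74), against 18.0% and 10.4% of all genes in that fit. Channel genes called there, and not with all arrays, were Kcna1 (0.28), Kcnk15 (0.54), Kcnq1 (0.7) and Kcnv1 (0.37) as higher and Kcna4 (-0.58), Kcnb2 (-0.76) and Kcnip4 (-0.88) as lower.

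AdNkx6.1 against untreated asks what the Nkx6.1 virus and infection changed together. Of the 74 genes 10 rose and 15 fell at a limma adjusted p under 0.05 (33.8% of the 74), against 16.9% and 13.8% of all genes, 30.7% in all. The median log2 change was -0.1, against -0.01 over all genes. By family, 1 of 31 voltage-gated pores rose and 8 fell (median -0.19), 1 inward rectifier rose and 2 fell, 4 K2P channels rose and 1 fell, 3 calcium- or sodium-activated pores rose and 1 fell, and 1 auxiliary subunit rose and 3 fell. The genes called in the same direction against each of the other groups were 9 higher (Kcna6, Kcnab3, Kcnj6, Kcnk1, Kcnk4, Kcnk6, Kcnn1, Kcnn4 and Kcnt1) and 6 lower (Kcna2, Kcnab1, Kcnc2, Kcnh6, Kcnip1 and Kcnj3). These comparisons share the AdNkx6.1 arrays, so the counts are not independent. The share of all genes called in both was not counted, so these counts do not set the channel genes apart from other genes.

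The genes called against untreated alone were Kcnk5 as higher and Kcna4, Kcnb2, Kcnd2, Kcnh2, Kcnk10 and Kcnma1 as lower. Kcnk5, an acid-sensitive background channel, read 9.33, 9.29, 8.71, 9.15 and 8.92 with AdNkx6.1, 7.94 to 9.2 with a median of 8.74 with Adβgal, and 8.17, 8.6, 8.31, 8.39 and 7.81 untreated. The Adβgal arrays spanned the other groups. The log2 change against untreated was 0.82 ± 0.21 (1.77-fold, limma adjusted p = 0.0082), and the change against Adβgal was 0.48 ± 0.21 (adjusted p = 0.1). Kcnk5 is the gene whose window, printed above, holds TAATTA.

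Kcnb2, a delayed rectifier of the Shab type, read 8.27, 8.02, 7.55, 7.89 and 8.0 with AdNkx6.1 and 8.72, 8.88, 8.78, 9.18 and 8.54 untreated, with Adβgal between 7.88 and 8.97. AdNkx6.1 and untreated arrays did not overlap. It fell by 0.87 ± 0.19 on the log2 scale (1.83-fold, limma adjusted p = 0.0021). Against Adβgal the change was -0.47 ± 0.18 (95% interval -0.85 to -0.09, adjusted p = 0.066).

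Kcnd2, an A-type pore, read 6.38, 6.54, 4.75, 6.19 and 6.27 with AdNkx6.1, and 6.8, 7.2, 6.88, 6.72 and 7.61 untreated. AdNkx6.1 replicate 3 was far below the others. The change was -1.01 ± 0.3 (limma adjusted p = 0.016) with all arrays and -0.69 at the smallest when 1 array was left out, and a second probe set fell by 0.574 (adjusted p = 0.018). Kcna4, another A-type pore, fell by 0.72 ± 0.23 (8.83 ± 0.29 against 9.55 ± 0.15, adjusted p = 0.023), a call lost without AdNkx6.1 replicate 3 (-0.6, adjusted p = 0.063).

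Kcnma1, the pore of the large-conductance calcium-activated channel, read 12.69, 12.8, 12.87, 12.48 and 12.7 with AdNkx6.1, and 12.88, 13.04, 12.88, 13.11 and 13.05 untreated. The AdNkx6.1 values were all lower, by 0.28 ± 0.08 on the log2 scale (limma adjusted p = 0.0094). Of its other probe sets 2 fell by 0.652 and 0.794 (adjusted p = 0.0022 and 0.0027). The second of these fell by 0.932 with Adβgal against untreated (adjusted p = 0.0046) and changed by 0.138 in AdNkx6.1 minus Adβgal (adjusted p = 0.6). Kcnh2, an ether-à-go-go related channel, fell by 0.36 ± 0.08 (9.71 ± 0.16 against 10.08 ± 0.09, adjusted p = 0.0021) with no overlap. Kcnk10, a relative of Kcnk2, read 5.71 ± 0.12 with AdNkx6.1 and 5.99 ± 0.2 untreated, a difference of -0.28 ± 0.1 (adjusted p = 0.046) that was lost when any 1 of 10 arrays was left out.

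A list of 20 channel genes known from islet work, 18 of them measured, was read off the same fit. Against Adβgal 3 rose and 3 fell, 16.7% each, beside 16.6% and 8.48% of all genes (median log2 change -0.05, against 0.02). Between Adβgal and untreated 0 rose and 1 fell (5.56%), beside 2.84% and 4.17% of all genes (median -0.2, against -0.04). Between AdNkx6.1 and untreated 3 rose (16.7%) and 8 fell (44.4%), beside 16.9% and 13.8% of all genes (median -0.26, against -0.01). The list was chosen with earlier results known, so no test was made of it. The members that were called in 0 comparisons, by the probe sets used, were Kcnc1, Kcnn3, Kcnk3, Kcnq1, Kcns3, Kcng2 and Kcne2. A dimmer probe set of Kcne2, at a mean of 4.484, rose by 0.781 against Adβgal (limma adjusted p = 0.0058). Against untreated that probe set rose by 0.652 (adjusted p = 0.019). Kcnk3, an acid-sensitive background channel, read 8.85 ± 0.3 with AdNkx6.1, 8.88 ± 0.14 with Adβgal and 9.09 ± 0.3 untreated (SD), and its change against Adβgal had a 95% interval of -0.33 to 0.28. Its dimmer probe sets differed: that with a mean of 5.689 was 0.384 higher than with Adβgal (limma adjusted p = 0.0045), and that with a mean of 6.336 fell by 0.271 against untreated (adjusted p = 0.014). Kcng2, a modifier pore that is silent alone, read 7.93 ± 0.14, 7.82 ± 0.24 and 8.01 ± 0.08 in the same order (interval -0.11 to 0.33). Kcns3, likewise a modifier, changed by -0.52 ± 0.23 against Adβgal (adjusted p = 0.12). Kcnc1 read 4.21 to 6.19 with Adβgal and its change there was -0.01 ± 0.29.

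In all, 45 of the 74 genes were called in 0 comparisons. Against Adβgal their changes, with those called elsewhere, lay between -0.88 and 0.56. Of the 74 genes, 30 did not reach a log2 intensity of 6 on 5 arrays; 2 of these, Kcnk4 and Kcnt1, rose against Adβgal, and no value of theirs separates an absent transcript from a poor probe set.

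Neighbouring channel genes did not all move alike. In GRCr8, 8 pairs of the 74 genes have no protein-coding gene between them. On chromosome 11 Kcnj6 neighbours Kcnj15: against untreated, Kcnj6 changed by 1.09 ± 0.16 and Kcnj15 by -1.01 ± 0.23. On chromosome 4 the Shaker-type genes Kcna5, Kcna1 and Kcna6 lie in a row, with Kcna5 lower than untreated, Kcna6 higher, and Kcna1 at 4.72 ± 0.05 with AdNkx6.1 and 4.71 ± 0.12 untreated (SD). On chromosome 2 Kcna3 neighbours Kcna2, which fell. The remaining pairs are Kcnip1 with Kcnmb1 and Kcnj16 with Kcnj2 on chromosome 10, Kcnj9 with Kcnj10 on chromosome 13, and Kcnj5 with Kcnj1 on chromosome 8.

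Of 28 partner genes, which work with potassium channels or carry potassium themselves, 20 were measured. Against Adβgal 3 of the 20 rose and 2 fell, near the background of 16.6% and 8.48% of all genes. Between Adβgal and untreated 0 of the 20 rose and 2 fell, beside 2.84% and 4.17% of all genes. Between AdNkx6.1 and untreated 3 of the 20 rose and 5 fell, beside 16.9% and 13.8% of all genes. No test was made of these counts. Kcnj11 and Abcc8, the subunits of the beta cell ATP-sensitive channel, fell against untreated by 0.45 ± 0.08 and 0.44 ± 0.1 on the log2 scale (limma adjusted p = 0.00063 and 0.0027); against Adβgal Kcnj11 fell by 0.25 ± 0.08 (adjusted p = 0.033) and Abcc8 changed by -0.19 ± 0.09 (adjusted p = 0.15), which became -0.33 (adjusted p = 0.0017) without Adβgal arrays 4 to 6. Dpp10, which assembles with A-type pores, fell by 0.97 ± 0.3 against Adβgal (adjusted p = 0.027) and 1.67 ± 0.32 against untreated (adjusted p = 0.00083), and its relative Dpp6 by 0.55 ± 0.11 against untreated (adjusted p = 0.0016). Against Adβgal Dpp6 changed by -0.19 (adjusted p = 0.23) with all arrays and by -0.42 (adjusted p = 0.0022) without Adβgal arrays 4 to 6.

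Potassium chloride cotransporters were among the genes that rose. Slc12a5 read 8.96, 8.69, 8.47, 8.66 and 8.83 with AdNkx6.1, 7.4 to 8.05 with a median of 7.56 with Adβgal, and 7.86, 7.82, 7.91, 8.54 and 7.89 untreated. It rose by 1.04 ± 0.15 against Adβgal (limma adjusted p = 7.5e-05), and Slc12a7 rose by 0.84 ± 0.08 (adjusted p = 1.9e-06); Slc12a4 changed by 0.18 ± 0.13 (adjusted p = 0.36), and by 0.46 (adjusted p = 0.0036) without Adβgal arrays 4 to 6. Against untreated Slc12a4, Slc12a5 and Slc12a7 rose by 0.62, 0.72 and 0.68. The sodium potassium chloride cotransporter Slc12a2 fell with each virus against untreated, by 0.39 ± 0.1 with Adβgal and 0.52 ± 0.11 with AdNkx6.1 (adjusted p = 0.034 and 0.0018). Tmem38a, a potassium channel of the endoplasmic reticulum, was 0.58 ± 0.12 higher with AdNkx6.1 than Adβgal (adjusted p = 0.0023) and 0.47 ± 0.12 lower with Adβgal than untreated (adjusted p = 0.029). Without Adβgal arrays 4 to 6 the second of these calls was lost (-0.33, adjusted p = 0.086).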

How the data were processed

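RNA of rat islets was measured on 1-colour arrays. The deposited table holds 1 linear intensity per probe set and array (31099 probe sets, values between 6.25 and 35765). Per the submitters' processing notes the authors used RMA; its version is not given in the sources used here. The design foresaw that log2 would be taken of linear values, and this was done with no pseudocount. Of the probe sets, 57 controls, 436 with several symbols and 9780 with none were left out; 20826 had 1 symbol and gave 14217 genes, each read from its brightest probe set.

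The test was limma (version 3.58.1, run in R 4.3.3), with lmFit, contrasts.fit and eBayes over the 3 groups in 1 fit, 2-sided, with Benjamini-Hochberg adjustment over the 14217 genes and a threshold of 0.05. Other probe sets were added to that fit. The script was tested on simulated data. The labels state 5 replicates per condition, whereas 6 Adβgal arrays exist and all were used. Deviations of same-numbered arrays from their group means correlated between -0.387 and 0.249. The labels do not say what a replicate number shares. No detection call was used; the number of arrays limits precision. Tables were made with pandas 2.3.3 in Python 3.11.15, figures with matplotlib 3.10.9.

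Named genes were all channel genes called in at least 1 comparison, an islet list, and called partner genes. Members and lists were chosen with earlier results of these data known. Other settings tried were the mean of all probe sets, quantile normalization again, a filter at log2 of 6 on at least 5 arrays, fits with only the 2 groups compared, a block for replicate number over arrays 1 to 5, array weights, an intensity trend, a pseudocount of 64, each array left out, and, added after seeing the data, no Adβgal arrays 4 to 6 and arrays 1 to 5 with no block.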

Additional observations from a re-analysis of the deposited data

Results flagged for a closer look

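Single arrays stood far from the rest of their group in 12 of 108 combinations of a named channel gene and a group; chance gives about 1 in 20. With AdNkx6.1, replicate 3 was lowest for Kcna4 (8.33, next 8.88) and Kcnd2 (4.75, next 6.19). With Adβgal, replicate 5 was lowest for Kcnc1 (4.21, next 5.65) and Kcnd2 (5.84, next 6.73) and highest for Kcnc2 (8.86, next 8.48) and Kcns3 (8.99, next 7.99). In the same group replicate 2 was highest for Kcnh2 (9.99, next 9.84) and replicate 4 lowest for Kcnip3 (10.18, next 10.73). Among untreated arrays replicate 3 was lowest for Kcna4 (9.28, next 9.58), replicate 1 lowest for Kcnq5 (6.7, next 7.29) and highest for Kcns3 (7.83, next 7.47), and replicate 5 lowest for Kcnt1 (5.34, next 5.64).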

How the results depend on the processing

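Of the 48 calls of channel genes, 37 held whichever 1 array was left out and 11 did not. With single arrays left out, AdNkx6.1 minus Adβgal gave 10 to 13 channel genes higher and 5 to 8 lower, Adβgal minus untreated 0 to 1 and 3 to 7, and AdNkx6.1 minus untreated 8 to 11 and 12 to 18. The 0 in Adβgal minus untreated came without untreated replicate 1 and the 7 without Adβgal replicate 2. A second quantile normalization gave 11 lower for AdNkx6.1 minus Adβgal, against 7, and 7 lower for Adβgal minus untreated, against 4. Array weights gave 8 lower for Adβgal minus untreated and 23 lower for AdNkx6.1 minus untreated, against 15. The spread was shared by the 3 groups, so Adβgal arrays also bear on AdNkx6.1 minus untreated. There, only the 2 groups compared gave 14 higher and 19 lower (3317 and 2933 over all genes). Leaving out Adβgal arrays 4 to 6 gave 12 and 20 (3231 and 2913). Gained in that fit were Kcnj14 and Kcnk15 as higher and Kcnc1, Kcnd1, Kcnh1, Kcnip4 and Kcnk2 as lower (limma adjusted p 0.0018 to 0.046). Only the 2 groups compared, the replicate block over arrays 1 to 5, and leaving out Adβgal arrays 4 to 6 each gave 0 higher for Adβgal minus untreated, against 1. The replicate block leaves out Adβgal array 6. It gave 11 higher and 5 lower for AdNkx6.1 minus Adβgal, as did the same arrays with no block. For AdNkx6.1 minus untreated it gave 8 and 14, against 10 and 15 with no block. What a replicate number shares is not stated in the labels. Kcnh6 and Kcnq5 against Adβgal and Kcnip3 in Adβgal minus untreated were lost on those arrays with and without the block. Kcnj14 in Adβgal minus untreated and Kcnk1, Kcnk6 and Kcnk10 in AdNkx6.1 minus untreated were lost with the block alone. Without Adβgal arrays 4 to 6 all 25 calls in AdNkx6.1 minus untreated were kept. Among them were Kcnh6, Kcnk1, Kcnk6, Kcnip3 and Kcnk10 (limma adjusted p = 0.0033, 0.0011, 0.0085, 0.0021 and 0.025). With only the 2 groups compared Kcnh6, Kcnq5, Kcnip3 and Kcnj14 were lost, and a second quantile normalization ended Kcnk2 against Adβgal (0.54, limma adjusted p = 0.072) and Kcnk6 against untreated (0.26, adjusted p = 0.12). Over all genes, 404 rose and 593 fell in Adβgal minus untreated, against 269 and 378 on arrays 1 to 5 with no block, 152 and 241 with the block on those arrays, 212 and 309 with only the 2 groups, and 712 and 1078 with array weights; in AdNkx6.1 minus untreated 2404 rose and 1956 fell, against 3862 and 3607 with array weights. In AdNkx6.1 minus Adβgal, direction was reversed for Kcne2 with the mean of its probe sets, at 0.39 (limma adjusted p = 0.027) against -0.03. The Kcne2 probe sets not used, at means of 4.484 and 3.943, changed by 0.781 and 0.406 (adjusted p = 0.0058 and 0.12). Direction was also reversed for Kcnq1 without Adβgal arrays 4 to 6, at 0.7 (adjusted p = 0.014) against -0.11, and the cause was not tested. No detection calls were used, so dim genes limit fold sizes.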
